A study of Caenorhabditis elegans with 2 samples.

Results

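The nuclear-encoded respiratory chain genes of Caenorhabditis elegans were examined for ChIP-seq peaks of the nuclear hormone receptor NHR-11 in whole L2 larvae. The genes were chosen by name, with earlier results of these data known. A list of 28 symbols was joined by every other nuclear protein-coding gene whose symbol starts with cox-, nduf-, nuo-, atp- or ucr- in the Ensembl 115 annotation of WBcel235, which added 21. The resulting 49 genes, of 19973 nuclear protein-coding genes in all, were 14 subunit genes of complex I, 4 of complex II, 7 of complex III, 7 of complex IV, 9 of complex V and 8 assembly factors of cytochrome c oxidase. The animals were strain OP305, which carries unc-119(ed3) III together with wgIs305, a transgene for eGFP-tagged NHR-11. There were 2 biological replicates, each with 1 technical replicate of mixed-sex larvae and DNA fragments of 150 to 350 bp. They form 1 group, so no contrast between conditions was made, and an untagged strain, an nhr-11 mutant and the control library were not analysed here. The labels do not say which promoter drives the transgene or how many copies it has, and whole animals mix all cell types, so a peak cannot be placed in a tissue.

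The respiratory chain of the inner mitochondrial membrane passes electrons from NADH (complex I, NADH dehydrogenase) and succinate (complex II) through ubiquinone to the cytochrome bc1 complex (complex III), and from there through cytochrome c to oxygen (complex IV, cytochrome c oxidase). The proton gradient built on the way drives ATP synthase (complex V). Most subunits are encoded in the nucleus and the rest in mitochondrial DNA, and in C. elegans mutations in several of the nuclear genes alter growth, stress resistance and lifespan. Nuclear hormone receptors bind DNA through a zinc finger domain, and the family is greatly enlarged in nematodes.

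Each gene was described by the peaks with a summit in its window, which reached 1000 bp upstream and 500 bp downstream of each of its annotated transcript 5′ ends, and by the highest signal value among them. Signal values are those the authors' peak caller wrote, and were used only to describe and rank peaks within a list. The thresholded list held 280 peaks with signal values of at least 27.45. The unthresholded list of the pooled replicates held 13299 peaks, that of replicate 1 held 25831 and that of replicate 2 held 27015. By the authors' description the unthresholded lists include background, so an entry there states a position and a value and is not a call. The lists give no read counts, so the sequencing depth is unknown. The nhr-11 gene itself had no peak in its window in any of the 4 lists.

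Members had peaks in a larger share than nuclear genes at large in all 4 lists. By complex, the subunit genes of cytochrome c oxidase were the most complete set in the pooled list. In the thresholded list 2 of 49 members had a peak, cox-5B and cox-6A, which was 4.08% (95% Wilson interval 1.13% to 13.7%), against 0.801% of all nuclear protein-coding genes. Both genes were among the 28 symbols listed by name, which were chosen with earlier results of these data known. In the pooled list 28 members had one, or 57.1% (43.3% to 70.0%), against a background of 24.7%. Replicate 1 listed 27 members, or 55.1%, against 40.4% of all genes, and replicate 2 listed 36, or 73.5%, against 39.7%. Both replicate lists held 22 members, or 44.9% (31.9% to 58.7%), against 21.4%. Such a gene had a peak anywhere in its window in each list, not always at the same site. These intervals cover counting error only, and no test was made, because genes are not replicates. With the 13299 strongest peaks of a single replicate in place of the pooled list, 18 members were listed without replicate 2 and 26 without replicate 1, against backgrounds of 24.4% and 23.5%. The both-replicate count fell to 12 of 49 with a window of 500 bp upstream to 250 bp downstream, where the background was 11.3%. Where each summit was given only to the nearest 5′ end, it was 14 of 49 and the background was 17.7%.

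By complex, pooled peaks were listed at 6 of 14 genes of complex I (42.9%), 2 of 4 of complex II (50%), 4 of 7 of complex III (57.1%), 7 of 7 of complex IV, 7 of 9 of complex V (77.8%) and 2 of 8 assembly factors (25%). The background was 24.7%, which the assembly factors' share nearly equalled. With so few genes the Wilson intervals were wide: 21.4% to 67.4% for complex I, 64.6% to 100% for complex IV and 7.15% to 59.1% for the assembly factors. The differences between complexes were not tested. The pooled count of complex IV also moved with the settings. It was 5 of 7 with the window of 500 bp upstream to 250 bp downstream (background 16.4%). It was 6 with the nearest 5′ end only (21.3%), without summits near short non-coding genes (23.8%) or with the outermost 5′ end only (22.1%). Among the 13299 strongest peaks of replicate 1 alone, cox-4, cox-6C and cox-7C were missing (background 24.4%). Among those of replicate 2 alone, cox-6B and cox-7C were missing (23.5%), so the full set of complex IV rested partly on weak entries. Both replicate lists held all 7 genes of complex IV, 5 of 9 of complex V, 3 of 7 of complex III, 2 of 4 of complex II, 3 of 14 of complex I (21.4%) and 2 of 8 assembly factors (25%). The share of all nuclear genes in both lists was 21.4%, so complex I and the assembly factors stood at or near the background there. The median of the highest pooled signal was 13.99 over the 28 members with a pooled peak and 11.12 over the 4927 nuclear genes with one. The same medians were 7.14 and 6.09 in replicate 1, and 5.42 and 4.60 in replicate 2. The windows had a median of 1501 bp for members and for all genes, which is the size for a single 5′ end. Their mean was 1593 bp for members and 1800 bp for all genes.

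**Figure D1:**
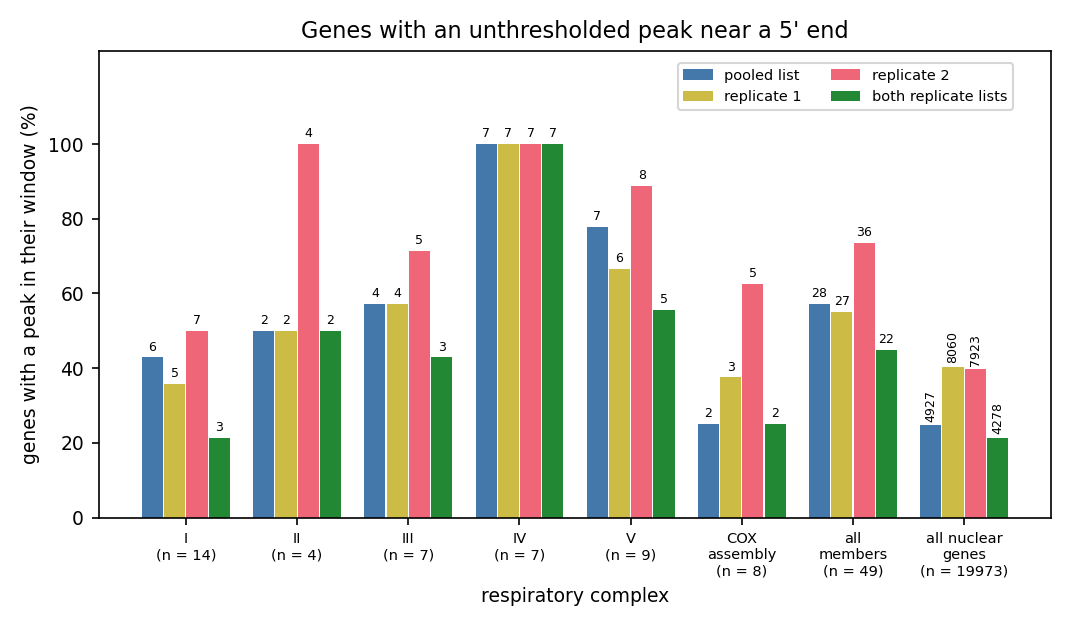
Share of genes (%, y axis) with an unthresholded peak in their window, by respiratory complex (x axis, with the number of genes), in the pooled, replicate 1 and replicate 2 lists and in both replicate lists; the number on each bar is the count of genes. All 7 genes of complex IV had a peak in each of these lists with this window, and 28 of 49 members had a pooled peak beside 4927 of 19973 nuclear genes.

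The 101 bases around the highest pooled summit are printed for 7 members on which the following results turn, read on the strand of the gene from the RefSeq genome WBcel235 (ce11). Capitals mark a match on either strand to any of 6 motifs searched: the nuclear receptor half-site AGGTCA and its variants AAGTCA and AGTTCA, the E-box CACGTG, the repeat GAGAGA and the GATA-factor motif TGATAA. The atp-2 window (chrIII:5228126-5228226, plus strand) belongs to the strongest member peak below the threshold. The windows of cox-5A (chrIII:12905201-12905301, plus strand) and sdha-1 (chrX:8546211-8546311, minus strand) show the GAGAGA matches. The windows of ucr-2.1 (chrX:12018073-12018173, plus strand) and ucr-2.2 (chrX:15173623-15173723, plus strand) belong to peaks ranked high by different replicates. The atp-5 window (chrV:11123372-11123472, minus strand) held the only AGGTCA, and the cox-6C window (chrIV:126376-126476, plus strand) had the lowest G+C content.
atp-2: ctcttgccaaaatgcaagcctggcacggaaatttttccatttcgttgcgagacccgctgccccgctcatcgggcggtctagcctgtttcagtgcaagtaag
cox-5A: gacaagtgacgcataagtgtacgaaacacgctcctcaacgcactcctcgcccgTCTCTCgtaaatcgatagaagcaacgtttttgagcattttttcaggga
sdha-1: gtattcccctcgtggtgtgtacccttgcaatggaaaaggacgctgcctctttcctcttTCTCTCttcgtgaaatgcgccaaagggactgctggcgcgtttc
ucr-2.1: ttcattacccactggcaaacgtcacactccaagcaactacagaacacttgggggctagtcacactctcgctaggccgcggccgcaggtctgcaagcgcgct
ucr-2.2: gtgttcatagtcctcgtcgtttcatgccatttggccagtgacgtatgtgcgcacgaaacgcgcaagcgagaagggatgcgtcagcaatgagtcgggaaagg
atp-5: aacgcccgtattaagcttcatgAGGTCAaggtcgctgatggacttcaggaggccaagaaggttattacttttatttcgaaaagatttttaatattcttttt
cox-6C: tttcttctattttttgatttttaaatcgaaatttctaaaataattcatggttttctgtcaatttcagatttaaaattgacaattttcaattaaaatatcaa

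Among the 28 members with a pooled peak, 5 summit windows held any of the 6 motifs (17.9%), against 30.7% of the windows of all 4927 nuclear genes with a pooled peak. AGGTCA occurred in 1 member window (3.57%) and in 2.37% of all, and AAGTCA in 1 (3.57%, that of nduf-6) and 4.85%. GAGAGA occurred in 3, those of sdha-1, cox-5A and asb-2 (10.7% against 10.4% of all). No member window held AGTTCA (5.83% of all windows did), the E-box (1.99%) or TGATAA (9.01%). The shares rest on 1 to 5 windows, and a match is a run of letters, not a shown binding site. Base composition did stand at a higher level: the median G+C content of the members' windows was 44.6% (quartiles 38.1% and 53.5%), and that of all nuclear genes with a pooled peak was 37.6% (30.7% and 44.6%). The range among members was 17.8% at cox-6C to 60.4% at atp-1.

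Complex I takes electrons from NADH. Pooled peaks were listed at 6 of its 14 genes, and the median of their highest signal, 9.75, was below the 11.12 of all nuclear genes with a pooled peak. In the replicate lists the complex I medians were above those of all genes, at 6.32 against 6.09 and 7.69 against 4.60. No thresholded peak lay at any of the 14. The highest value was at nduf-9, which encodes an alpha subcomplex subunit, with a signal of 20.71 in the pooled list, 13.45 in replicate 1 and 7.97 in replicate 2. Its pooled peak ranked 671 of 13299. The 3 summits lay close together, at 637, 643 and 627 bp upstream, but inside the miRNA gene cel-mir-4936, and the nearer protein-coding 5′ end was that of Y53G8AL.4. For nduf-7, an iron-sulfur subunit gene, the values were 14.59 pooled, 4.71 in replicate 1 and 9.44 in replicate 2. The pooled summit lay in its own 5′ UTR, 92 bp upstream of the nearest of its 5′ ends. The iron-sulfur subunit gene nuo-2 had 10.18 in the pooled list and 8.06 in replicate 2, with no replicate 1 peak. At nduf-6 the pooled value was 9.32, and the summit, 894 bp upstream, fell in a coding exon of the neighbour nars-1.

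The other complex I values in the pooled list were lower. The gene nuo-6, mutants of which are long-lived, had 9.12 pooled and 6.32 in replicate 1. Its pooled summit lay 990 bp upstream, within a coding exon of tofu-5. For nuo-3 the pooled value was 8.64. The genes nuo-1 and nuo-4 were listed by replicate 2 only, at 7.69 and 5.06. In replicate 1 only was nduf-2.2, at 6.81, with its summit exactly 1000 bp upstream at the edge of the window. No list held a peak for 5 genes: the core subunit genes gas-1, whose mutant is sensitive to volatile anesthetics, and nuo-5, and the accessory subunit genes lpd-5, nduf-5 and nduf-11. With the window of 500 bp upstream to 250 bp downstream the pooled count for complex I was 2 of 14, where the background was 16.4%.

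Complex II, succinate dehydrogenase, also belongs to the tricarboxylic acid cycle. The gene of its flavoprotein subunit, sdha-1, had 17.99 in the pooled list (rank 1104), 7.67 in replicate 1 and 3.74 in replicate 2, with summits 240, 200 and 240 bp upstream. Beside this sits the snoRNA gene D2021.6, within 500 bp of the pooled summit. The cytochrome b560 subunit gene mev-1, mutants of which are sensitive to oxygen, had 16.20 in the pooled list, 15.46 in replicate 1 and 4.04 in replicate 2. The replicate 1 peak at mev-1 ranked 441 and the replicate 2 peak ranked 14365, but these were separate peaks that did not overlap. The replicate 1 summit was 127 bp upstream and the replicate 2 summit 324 bp downstream of a 5′ end. The pooled summit, in a coding exon of mev-1 and 98 bp upstream of the nearest of its 5′ ends, also lay in the windows of jmjd-4 and ced-9. The iron-sulfur subunit gene sdhb-1 and the small cytochrome b subunit gene sdhd-1 were listed by replicate 2 only, at 3.88 and 5.44. Without summits near short non-coding genes 1 of the 4 genes kept a pooled peak, where the background was 23.8%.

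Complex III passes electrons from ubiquinol to cytochrome c. The core protein genes ucr-2.1 and ucr-2.2 had similar pooled values, 17.71 and 16.26, from opposite replicates. For ucr-2.1 the signal was 16.44 in replicate 1 (rank 371) and 3.11 in replicate 2 (rank 22444), while ucr-2.2 had no replicate 1 peak and 15.46 in replicate 2 (rank 149). At ucr-2.1 the summit was 306 bp upstream and only 80 bp from the 5′ end of nmat-1, and at ucr-2.2 it was 231 bp upstream. The cytochrome c1 gene cyc-1 was steadier, with 15.21 in the pooled list and 7.14 and 7.10 in replicates 1 and 2, and summits 307, 305 and 253 bp upstream. The Rieske iron-sulfur protein gene isp-1, whose mutant is long-lived, had 10.12 pooled and 6.99 in replicate 1, with no replicate 2 peak, and the 5′ end of islo-1 was nearer to its summit. Of the rest, ucr-1 was in both replicate lists (5.35 and 4.59, with summits 331 bp downstream and 639 bp upstream) but not the pooled one, ucr-11 was in replicate 2 alone at 4.67, and ucr-2.3 was in no list. The pooled count for complex III was 2 of 7 with each summit given to the nearest 5′ end, where the background was 21.3%.

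**Figure D2:**
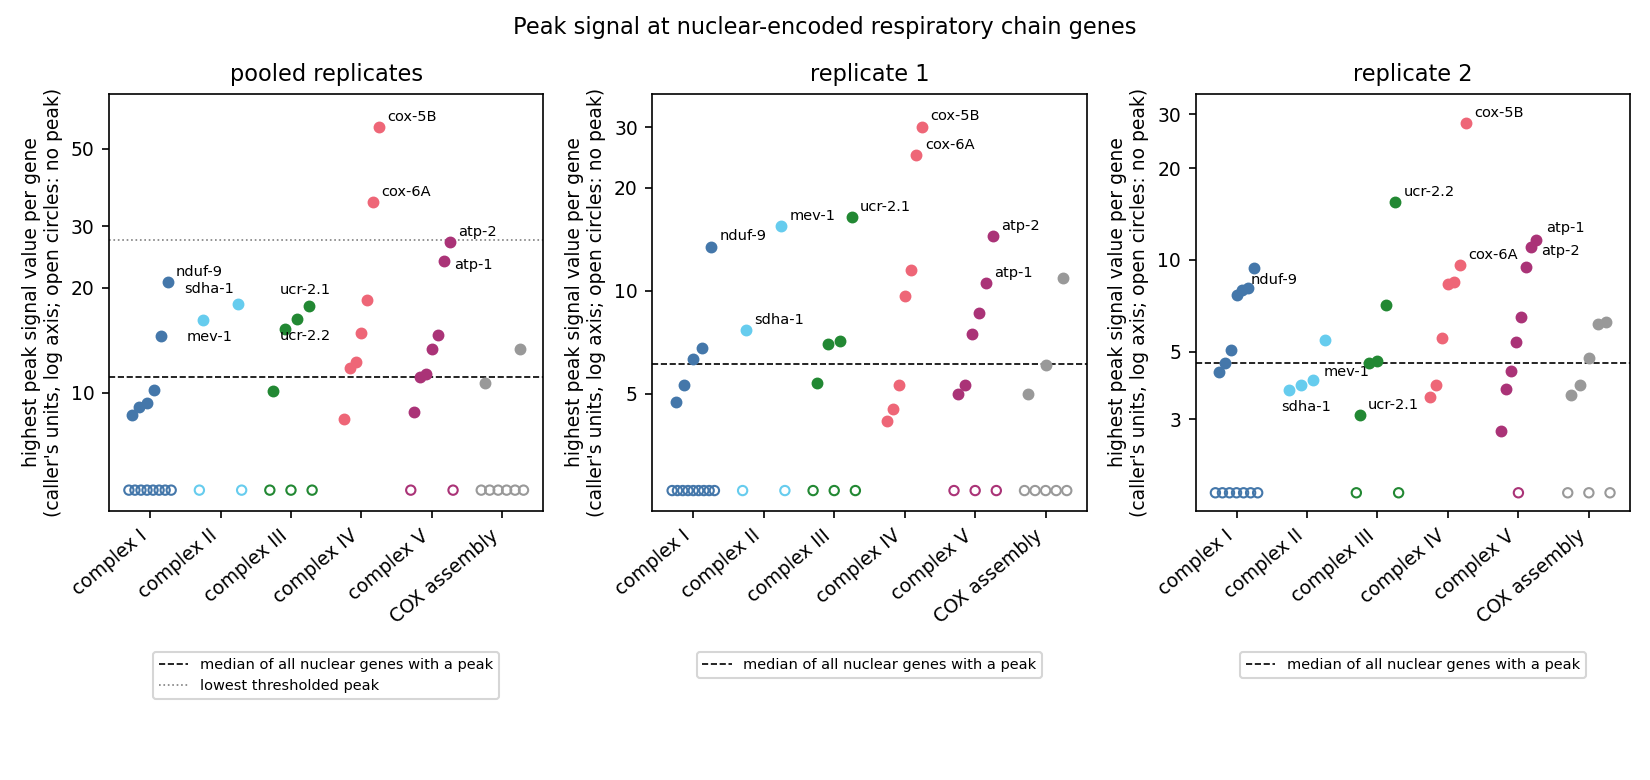
Highest signal value of each member (caller's own units, log y axis) in the pooled, replicate 1 and replicate 2 lists, grouped by complex (x axis); each point is 1 gene, open circles are genes without a peak, the dashed line is the median over all nuclear genes with a peak and the dotted line the lowest thresholded signal, 27.45. In the pooled panel cox-5B and cox-6A stand above the dotted line and atp-2, at 26.97, just under it; the 3 panels have no shared scale.

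Complex IV, cytochrome c oxidase, reduces oxygen, and its genes held both thresholded peaks. The subunit gene cox-5B had a signal of 57.68 in the thresholded and pooled lists, where it ranked 46, 30.17 in replicate 1 (rank 57) and 28.08 in replicate 2 (rank 35). Its peak spans 9788525 to 9788954 on chromosome I (ce11), and the summit lay in the 5′ UTR of cox-5B, 15 bp downstream of a 5′ end. The replicate summits were 1 and 29 bp downstream, so cox-5B was high and in place in both replicates. In gene order, counting each gene by its highest peak, it was 12 of 4927 in the pooled list, 21 of 8060 in replicate 1 and 12 of 7923 in replicate 2.

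The subunit gene cox-6A had 35.15 in the thresholded and pooled lists (rank 136), 24.96 in replicate 1 (rank 93) and 9.61 in replicate 2 (rank 889). Its pooled summit lay 880 bp upstream, inside a short RNA gene, and the replicate summits were 930 and 780 bp upstream. The 101 bases around the pooled summit occur at 2 places in the genome. The other place, on chromosome IV, is also inside a short RNA gene, and no pooled summit lay within 200 bp of its centre. How the authors treated reads that map to several places is not known here, so the cox-6A value may include reads from the other place. The part of the short RNA gene in the signal was not tested. With the window of 500 bp upstream to 250 bp downstream, or without summits near short non-coding genes, cox-6A was lost and 1 thresholded member was left, against backgrounds of 0.561% and 0.631%. Replicate 2 alone did not place cox-6A among its 280 strongest peaks. Those held cox-5B and ucr-2.2 (background 0.786%), and the 280 strongest of replicate 1 held cox-5B and cox-6A (0.791%).

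The other 5 oxidase subunit genes were listed by both replicates below the threshold. For cox-5A the signal was 18.50 pooled (rank 993), 11.45 in replicate 1 and 8.47 in replicate 2, with summits 240, 316 and 247 bp upstream in intergenic DNA. For cox-6B it was 14.79, 9.63 and 3.90, and the pooled summit lay in an intron of cox-6B nearer to the 5′ end of Y71H2AM.20. The AT-rich window of cox-6C had 12.22 pooled, 4.51 in replicate 1 and 8.31 in replicate 2. The values of cox-4 were 11.76 pooled and 5.29 and 5.53 in replicates 1 and 2, and those of cox-7C were 8.41, 4.16 and 3.56. For cox-4 and cox-7C the replicate 2 value came from another peak, 465 and 533 bp upstream, which did not overlap the pooled one. The replicate 2 peaks that overlapped the pooled ones had 4.95 and 2.77. Both pooled summits lay in the gene's own coding exons, and cox-7C was below the median of all nuclear genes with a peak in each list.

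Complex V makes ATP. Its catalytic beta subunit gene, atp-2, had 26.97 in the pooled list (rank 294), 14.41 in replicate 1 (rank 576) and 11.02 in replicate 2 (rank 511). That was 0.983 of the lowest thresholded signal, so it stood just outside the threshold, and the nearest member inside was cox-6A at 1.28 of it. The 3 summits lay 241, 230 and 229 bp upstream, in a region shared with the windows of C34E10.10 and C34E10.12. The alpha subunit gene, atp-1, had 23.93 in the pooled list (rank 431), 10.52 in replicate 1 and 11.61 in replicate 2, with the pooled summit in its 5′ UTR, 7 bp downstream of a 5′ end. Both genes of the catalytic head were among the 1000 highest-ranking nuclear genes of each replicate.

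The oligomycin sensitivity conferral protein gene atp-3 had 14.66 pooled and 9.47 in replicate 2, with no replicate 1 peak. Its pooled summit lay in its own 5′ UTR, 22 bp upstream of the nearest of its 5′ ends. The g subunit gene asg-2 had 13.36 pooled and 8.58 in replicate 1, both 211 bp upstream, with no replicate 2 peak. These were therefore single-replicate peaks. The d subunit gene atp-5 had 11.30 pooled, 5.29 in replicate 1 and 4.32 in replicate 2, with its pooled summit 445 bp downstream in a coding exon. Its replicate 1 value came from another peak, 307 bp upstream. The membrane-domain b subunit genes asb-2 and asb-1 had 11.13 and 8.81 pooled; asb-2 had 7.48 and 3.76 in replicates 1 and 2, and asb-1 had 6.48 in replicate 2 and no replicate 1 peak. Neither was near the top of any list. The coupling factor gene atp-4 was in both replicate lists (4.99 and 5.40) without a pooled peak, and asg-1 was in replicate 2 alone at 2.76.

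The cytochrome c oxidase assembly factors, which insert heme and copper or assist the enzyme without being part of it, had pooled peaks at 2 of 8 (25%), beside 24.7% of all nuclear genes. The copper delivery factor gene cox-11 had 13.38 pooled, 893 bp upstream and nearer to JC8.4, and the heme A synthesis gene cox-15 had 10.63 pooled, 48 bp downstream of a 5′ end, with 10.87 in replicate 1 and 4.77 in replicate 2. The replicate 1 peak in the cox-11 window was another one, of 4.98 at 374 bp upstream. Replicate 1 alone listed cox-14, and replicate 2 alone listed cox-16, cox-17 and cox-18, at 3.61 to 6.24. The heme farnesyltransferase gene cox-10 and the gene cox-19 were in no list. The pooled count of 2 became 1 with the window of 500 bp upstream to 250 bp downstream (background 16.4%) or the nearest 5′ end (21.3%). It became 4 with 2000 bp upstream to 500 bp downstream, where the background was 33.4%.

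Positions relative to the genes were like those of nuclear genes at large. The median pooled summit lay 235.5 bp upstream over the 28 members and 238 bp upstream over all 4927 genes, and 75% against 74.8% were upstream. Upstream here refers to the nearest of a gene's 5′ ends. The summits of atp-3, nduf-7, mev-1 and cox-6B were counted so but lay inside the gene itself. The members' spread was narrower on the far side, with a quartile of -306.2 bp against -537.5 bp. By annotation, 13 summits were intergenic (46.4% against 50.7% of all genes), 7 in coding exons (25% against 16.9%), 5 in 5′ UTRs (17.9% against 5.91%), 2 in 3′ UTRs (7.14% against 4.28%) and 1 in an intron (3.57% against 22%). A summit shared with the window of another protein-coding gene was found for 15 of 28 members (53.6%) and for 29.3% of all, so many of these peaks cannot be given to 1 gene. The member's own 5′ end was the nearest for 22 of 28 (78.6%), and for 84.9% of all. A short RNA gene lay within 500 bp of 3 summits, those of nduf-9, sdha-1 and cox-6A (10.7% against 4.12%); the part of these genes in the signal was not tested.

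**Figure D3:**
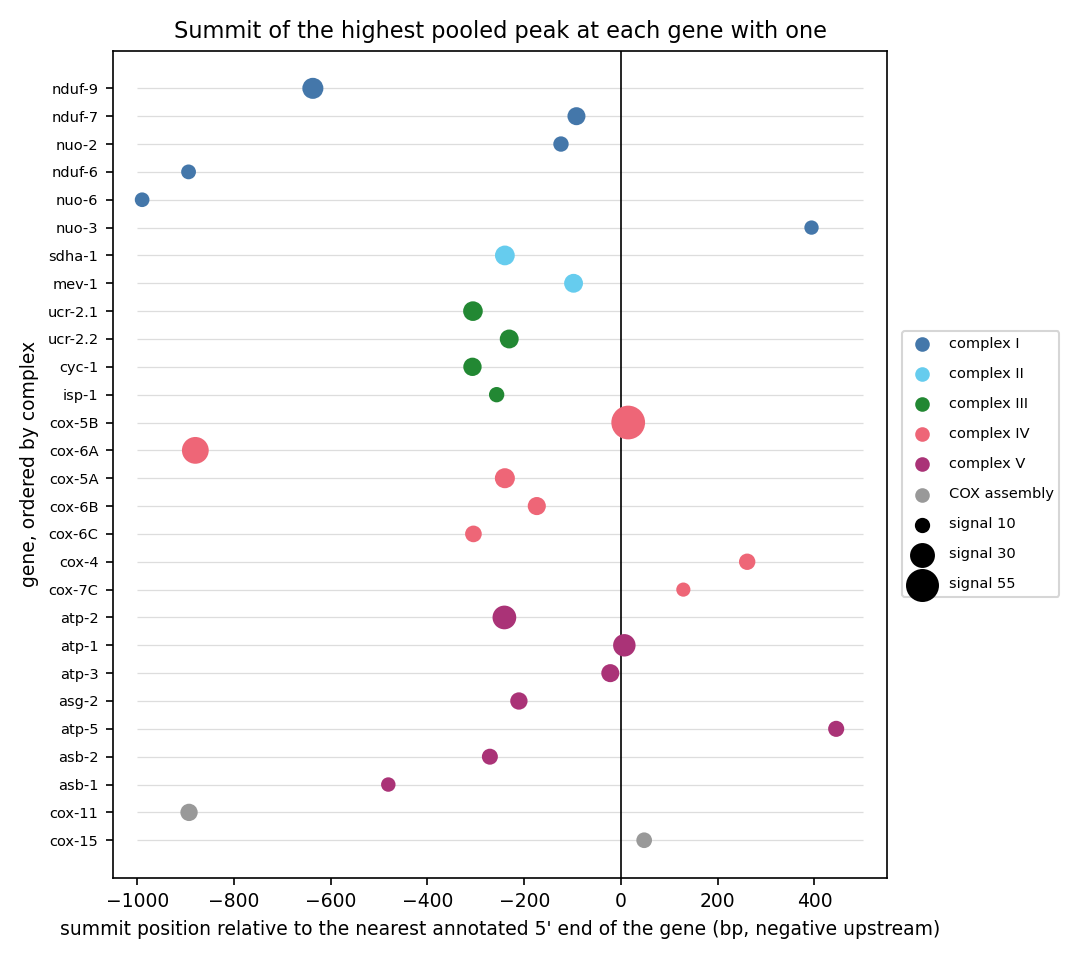
Position of the highest pooled summit of each of the 28 members with one (x axis, bp from the nearest annotated 5′ end, negative upstream), with genes on the y axis ordered by complex, colour for the complex and point area proportional to the pooled signal value. 21 of 28 summits lie upstream, and the largest point, cox-5B at 57.68, sits 15 bp downstream.

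The replicates shared some of their strongest members and not others. Replicate 2 ranked ucr-2.2 at 82 among genes and replicate 1 had no peak there, while replicate 1 ranked ucr-2.1 at 213 and mev-1 at 254 and replicate 2 at 6914 and 4983. Among the 1000 highest-ranking nuclear genes of each replicate, both held 6 members, which were cox-5B, cox-6A, atp-2, nduf-9, atp-1 and cox-5A (12.2% of 49), beside 350 genes in all (1.75% of 19973). Over the 22 members in both lists the Spearman correlation of gene ranks was 0.22, and the Pearson correlation of log2 signal was 0.45. Over all 4278 genes in both lists Spearman's correlation was 0.29. These describe 1 pair of libraries, and the genes share them. The best summits of 10 of the 22 lay within 100 bp of each other in the replicates. Of the 28 pooled peaks, 18 overlapped a peak of each replicate. A replicate 1 peak alone overlapped 4 (nduf-6, nuo-6, isp-1 and asg-2), and a replicate 2 peak alone overlapped 6 (nuo-2, nuo-3, ucr-2.2, asb-1, atp-3 and cox-11).

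**Figure D4:**
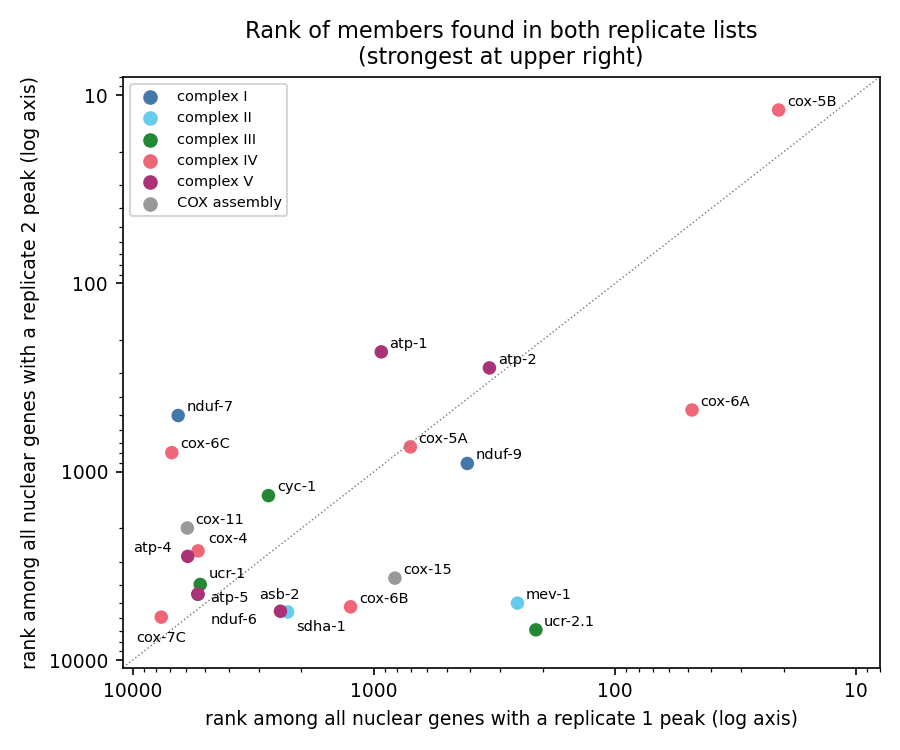
Rank of each of the 22 members with a peak in both replicate lists among all nuclear genes with a replicate 1 peak (x axis) and a replicate 2 peak (y axis), both log axes with the strongest genes at the upper right; points are genes, coloured by complex, and the dotted line marks equal rank numbers. cox-5B stands at 21 and 12, and mev-1 (254 and 4983) and ucr-2.1 (213 and 6914) lie far off the line.

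Other genes of mitochondrial energy metabolism were listed by name for comparison. None had a thresholded peak, beside 0.801% of all nuclear protein-coding genes, and the lists are too short to tell an absence from that share. The pooled share of all nuclear genes was 24.7%, and the coenzyme Q and cytochrome c genes were near it. Pooled peaks were found at 3 of 10 genes for coenzyme Q and cytochrome c (30%), 9 of 17 of the tricarboxylic acid cycle (52.9%), 2 of 4 adenine nucleotide carriers (50%), 4 of 6 further assembly factors (66.7%) and 2 of 4 genes of mitochondrial DNA maintenance and transcription (50%). The highest pooled values were at idhb-1 (21.54) and idhg-1 (20.47), subunits of isocitrate dehydrogenase, at ant-1.1 (20.99), the ADP/ATP carrier, and ant-1.3 (14.26), and at the cytochrome c gene cyc-2.1 (20.48) and the coenzyme Q gene coq-5 (14.20). For cyc-2.1 the replicates gave 15.16 and 9.17, with the pooled summit 139 bp upstream. The other lists were led by sft-1 (13.24) and nuaf-1 (12.62), and by the mitochondrial RNA polymerase gene rpom-1 (15.20) and mtss-1 (13.13).

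The remaining groups were added after the values were seen, and the same shares of all nuclear genes, 24.7% pooled and 0.801% thresholded, apply to them. Complex I subunit genes that RefSeq names ndua-, ndub-, nduc-, ndus- or nduv- had pooled peaks at 8 of 19 (42.1%), close to the 42.9% of the 14 complex I members, and were led by ndua-2 (26.38 pooled, 19.69 in replicate 1 and 5.30 in replicate 2) and ndub-3 (18.62). The peak counted for nduc-2, with a signal of 14.79 and 824 bp upstream, was the one also counted for the member cox-6B. Mitochondrial ribosomal protein genes had pooled peaks at 24 of 70 (34.3%), and 1, mrps-17, had a thresholded peak at 27.87. Cytosolic ribosomal protein genes had them at 59 of 78 (75.6%), with 9 in the thresholded list and a median pooled signal of 16.96. The respiratory chain genes, at 57.1% and 13.99, stood between the ribosomal groups, of which the mitochondrial one had a median of 11.74. The median pooled signal was higher than theirs in the tricarboxylic acid cycle (18.19), carrier (17.63) and added complex I (15.45) groups. It was slightly higher for coenzyme Q and cytochrome c (14.2) and mitochondrial DNA genes (14.17), and lower for the further assembly factors (11.47). The differences among the groups were not tested.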

How the data were processed

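ChIP-seq of eGFP-tagged NHR-11 in L2 larvae was analysed from the deposited ce11 peak lists of each replicate, of the pooled replicates and of the thresholded set. Per the files' description, the authors called peaks against a control for each replicate and for both together, and derived the thresholded list from them. The sources used here name neither the aligner and caller nor their versions. The signal values are the authors' own and their scaling is not given. Peaks also carry a deposited −log10 q-value, which no result uses. The ce10 lists were not used, since the annotation is ce11 and builds were not converted.

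Summits were taken as the peak start plus the deposited offset, and a summit was assigned to each gene for which it lay in the window given above. The assignment was checked on planted peaks. The summit sequence at cox-6A is not reported here. Python 3.11.15, pandas 2.3.3, numpy 2.4.6 and SciPy 1.17.1 were used. Where an interval is given beside a percentage, it is a 95% Wilson interval. With 1 group no test between conditions was made. The members, lists and motifs were chosen with earlier results of these data known, and 1 listed assembly factor, lpd-8, matched no gene symbol and was not counted. The text names every member with a thresholded peak or in no list, the 4 of each complex highest in pooled signal, the 4 highest without a thresholded peak, and the 2 highest of each other list; other members are named to account for all 49. Alternatives were the window, nearest 5′ end only, overlap in place of the summit, leaving out summits near short non-coding genes, the stronger part of the thresholded list, and leaving out each replicate, for which as many of the strongest peaks of the other replicate stood in for the shared list.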

Additional observations from a re-analysis of the deposited data

How the results depend on the processing

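The pooled count of 28 members ranged from 20 to 33 over the windows and assignment rules, where the background ranged from 16.4% to 33.4%. It was 27 with the outermost 5′ end of each gene only (background 22.1%), an alternative chosen after seeing the data. Leaving out replicate 2 gave 18 pooled members (background 24.4%), and leaving out replicate 1 gave 26 (23.5%). The 280 strongest peaks of each replicate held 2 members, against 0.791% of all genes in replicate 1 and 0.786% in replicate 2. Only cox-5B was in both sets, beside cox-6A in replicate 1 and ucr-2.2 in replicate 2. The window of 500 bp upstream to 250 bp downstream gave 1 thresholded member, of complex IV, and 12 in both replicate lists. With it the pooled counts were 2 for complex I, 5 for complex IV and 1 for the assembly factors, against a background of 16.4%. The nearest 5′ end gave 14 in both lists. Its pooled counts were 2 for complex III, 6 for complex IV and 1 for the assembly factors, against 21.3%. Leaving out summits near short non-coding genes gave 1 thresholded member, of complex IV. The pooled counts were then 1 for complex II and 6 for complex IV, against 23.8%. The window of 2000 bp upstream to 500 bp downstream gave 4 assembly factors, against 33.4%. The pooled signals of isp-1 and cox-11 became 13.7 with that window and with peak overlap. No other signal of the named members moved where a peak was kept. No paired analysis was possible because there was 1 group. Depth is unknown, weak entries may be background, and shared summits cannot be given to 1 gene.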
